A study of Mus musculus with 18 samples.

Results

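The 30 genes described here mark endothelial cells, the cells that line blood and lymphatic vessels, and were read in RNA sequencing of cells from skin wounds that had been held by magnetic beads to the macrophage protein F4/80. They were taken by symbol from the skin count table, which lists 26149 genes, with the most abundant transcript standing for each gene. Of these genes, 28 are expressed by blood vessel endothelium and 2, Prox1 and Flt4, were taken as lymphatic. All 30 passed the filter on low counts and were among the 15473 genes tested in skin.

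Endothelial cells are held together by junction proteins such as VE-cadherin (Cdh5) and PECAM-1 (Pecam1). They respond to vascular endothelial growth factors, angiopoietins, apelin and Notch ligands through receptors on their surface. In healing skin new vessels sprout into the wound bed, and a master factor, PROX1, gives lymphatic endothelium its identity.

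The skin libraries came from PPARg T166A mice (6 libraries) and WT mice (6 libraries), at day 6 after skin injury. PPARg is a lipid-sensing nuclear receptor. T166A names an alanine in place of a threonine, and the labels state no cell type restriction of this allele. Dorsal skin was digested with enzymes, and the cells retained by anti-F4/80 microbeads were sequenced. Bone marrow-derived macrophages (BMDM), grown for 7 days with M-CSF at 50 ng/ml from PPARg T166A mice (3 libraries) or WT mice (3 libraries), served as the comparison without wound tissue. The protocol names C57BL/6J as the strain beside the mutant mice in that culture. The labels do not say that replicates were separate animals, so the p-values can speak only for the spread among these libraries, which may be technical. The extraction text speaks of adipocytes, whereas all labels name macrophages.

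The skin libraries held 29357354 to 38774475 gene counts and the BMDM libraries 40072513 to 44152639. Levels are CPM, a gene's counts per 1000000 gene counts of its library, and each log2 fold change compares T166A with WT (T166A over WT) by the quasi-likelihood F test of edgeR, its p adjusted over all genes tested (Benjamini-Hochberg). That fit scales libraries by TMM factors, which makes its log2 fold changes 0.087 smaller than those of plain CPM in skin. In skin, 4011 of all genes tested passed an adjusted p of 0.05, which is 25.9%, with 12.7% higher and 13.2% lower in T166A. The 10 macrophage markers summed to 12560 to 14350 CPM in T166A and 14020 to 16210 CPM in WT libraries, and the 30 endothelial genes to 3152 to 4606 CPM in T166A and 2408 to 3413 CPM in WT libraries.

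Endothelial transcripts were more abundant in the T166A wound fraction. Of the 30 genes, 18 rose, 0 fell and 12 did not pass, where 12.7% of all genes tested rose and 13.2% fell. At an unadjusted p under 0.05, 22 were higher and 0 lower. The count of rises was 21 by DESeq2 and 18 by limma-voom, neither of which called any of the 30 lower. The log2 fold change was positive for 29 of the 30, with a median of 0.37, beside a median of 0.01 over all genes. The rises ran from 1.17-fold for Eng to 2.10-fold for Aplnr. In 9 genes (Pecam1, Vwf, Emcn, Erg, Mmrn2, Clec14a, Aplnr, Ecscr and Icam2) every T166A library lay above every WT library, which held for 8.83% of all genes tested. CPM is a share of each library, and macrophage marker sums were lower in T166A. In bulk samples like these, more endothelial cells, more RNA per cell and less RNA from other cells cannot be told apart.

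**Figure D1:**
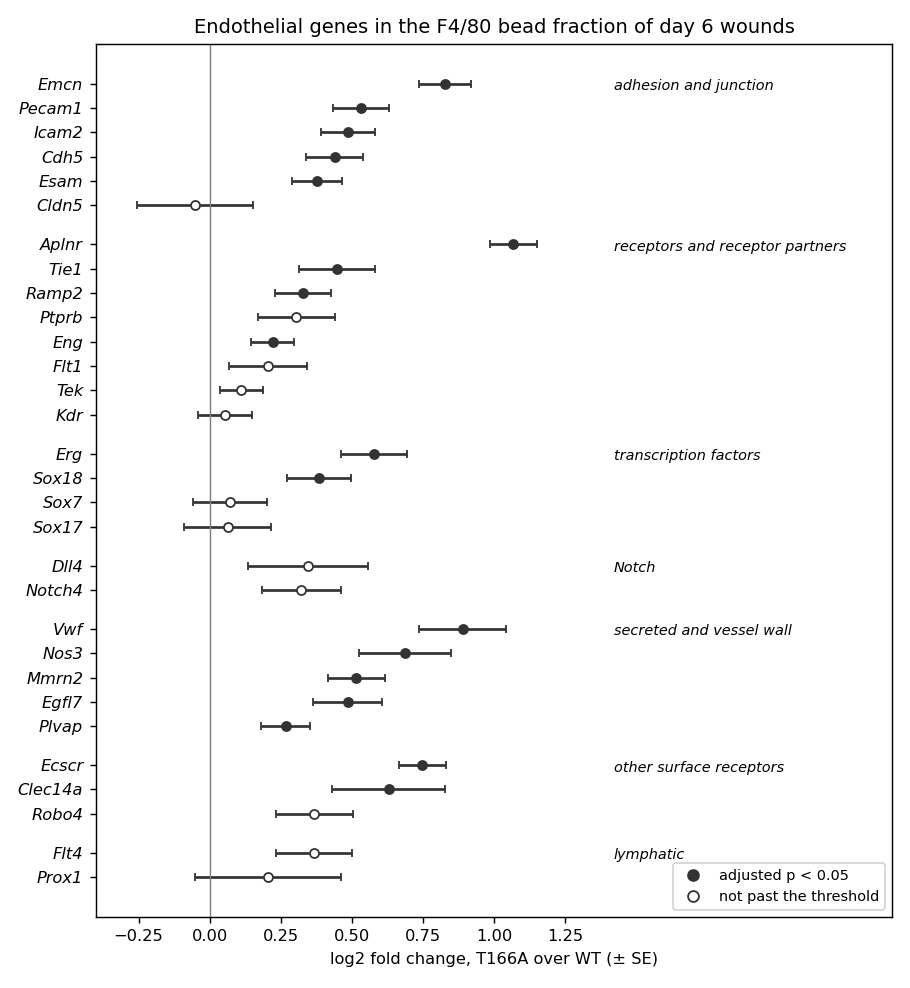
Log2 fold change of the 30 endothelial genes in skin, T166A over WT, by role; points are edgeR estimates, bars are the standard error (SE), and filled points passed an adjusted p of 0.05. Aplnr lies farthest right at 1.07, and Cldn5 alone lies left of 0, at -0.05.

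The counts by role that follow stand beside 12.7% of all genes tested that rose and 13.2% that fell, and differences between roles were not tested. Of the junction and adhesion genes, 5 of 6 were higher. Pecam1 (chromosome 11, 106654213 to 106715281, GRCm38.p6), which encodes an adhesion molecule of endothelial cell contacts, had 450.0, 576 and 641 CPM as lowest, median and highest value in T166A libraries, against 301, 368 and 426 CPM in WT libraries. All T166A libraries exceeded all WT libraries, and the log2 fold change was 0.53 (SE 0.10, edgeR adjusted p = 0.000995). Cdh5 (chromosome 8, 104101613 to 104144504), the adherens junction cadherin of endothelium, had 414, 529.5 and 604 CPM in T166A libraries, against 303, 366 and 429.7 CPM in WT libraries. Its groups overlapped at their edges, and the log2 fold change was 0.44 (SE 0.10, edgeR adjusted p = 0.00487).

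Emcn (chromosome 3, 137341062 to 137431069), a sialomucin of capillary and venous endothelium, rose most in this group. It had 75.0, 94.6 and 114 CPM in T166A libraries, against 40.6, 52.6 and 55.0 CPM in WT libraries, with no overlap (log2 fold change 0.83, SE 0.09, edgeR adjusted p = 4.42e-06). Icam2, an adhesion receptor that leukocytes bind, had 13.6, 16.4 and 19.8 CPM in T166A libraries, against 8.605, 11.8 and 12.2 CPM in WT libraries (log2 fold change 0.49, edgeR adjusted p = 0.000559). Esam, a tight junction adhesion molecule, had 75.6, 93.0 and 98.0 CPM in T166A libraries, against 52.9, 64.1 and 78.3 CPM in WT libraries (log2 fold change 0.38, edgeR adjusted p = 0.00426). The Icam2 groups were separate, and the Esam groups met at their edges.

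Cldn5 (chromosome 16, 18776847 to 18778262), the main claudin of endothelial tight junctions, stood apart from the other junction genes. It had 110.5, 162 and 208 CPM in T166A libraries, against 122, 148.5 and 234 CPM in WT libraries. The groups covered nearly the same range, and the log2 fold change was -0.05 (SE 0.20, edgeR adjusted p = 0.89). The estimate turned positive without T166A replicate 1 (0.042) and without WT replicate 3 (0.085).

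Receptors split: 4 of 8 rose and 4 did not pass. Aplnr (chromosome 2, 85136360 to 85139923), the receptor for apelin, rose most of all 30 genes. It had 30.3, 34.7 and 41.4 CPM in T166A libraries, against 14.1, 15.9 and 18.3 CPM in WT libraries. The lowest T166A library was well above the highest WT library, and the log2 fold change was 1.07 (SE 0.08, edgeR adjusted p = 4.3e-09). Tie1 (chromosome 4, 118471191 to 118489849), the orphan partner of the angiopoietin receptor, had 149.5, 199 and 249 CPM in T166A libraries, against 107, 137 and 165 CPM in WT libraries (log2 fold change 0.45, edgeR adjusted p = 0.0292). Its groups overlapped. Ramp2, the partner protein that makes the calcitonin receptor-like receptor respond to adrenomedullin, had 17.4, 23.4 and 26.1 CPM in T166A libraries, against 11.9, 17.8 and 18.2 CPM in WT libraries (log2 fold change 0.33, edgeR adjusted p = 0.0177). Eng (chromosome 2, 32646595 to 32682669), a co-receptor of the TGF-beta family, had 355, 419 and 491 CPM in T166A libraries, against 316, 337 and 393.5 CPM in WT libraries (log2 fold change 0.22, edgeR adjusted p = 0.0384). The Ramp2 and Eng groups overlapped as well. Of these, Tie1 and Eng were calls near the threshold. Tie1 lost its call in 5 of 12 fits that left out 1 library (without T166A replicate 2 or 3, or WT replicate 1, 4 or 6) and Eng in 9 of 12, all but those without T166A replicate 1, T166A replicate 4 or WT replicate 3. Eng did not pass by limma-voom (adjusted p = 0.056) or with counts summed over transcripts (0.0504).

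The vascular endothelial growth factor receptors of blood vessels were not among the genes that rose. Kdr (chromosome 5, 75932827 to 75979072), the main signalling receptor for VEGF-A, had 78.4, 96.5 and 111 CPM in T166A libraries, against 77.1, 83.2 and 115 CPM in WT libraries. The groups overlapped almost wholly, and the log2 fold change was 0.05 (SE 0.10, edgeR adjusted p = 0.728). Flt1, a VEGF receptor that also acts as a trap for its ligand, averaged 223 ± 33.2 CPM in T166A and 182 ± 37.6 CPM in WT libraries (SD, n = 6 each; log2 fold change 0.20, edgeR adjusted p = 0.319). Tek, the angiopoietin receptor TIE2, averaged 47.5 ± 6.26 CPM in T166A and 41.4 ± 3.55 CPM in WT libraries (0.11, edgeR adjusted p = 0.311). Ptprb, the phosphatase that acts on TIE2, averaged 135 ± 25.1 CPM in T166A and 103 ± 16.2 CPM in WT libraries (0.30, edgeR adjusted p = 0.125). In all 3 genes the groups overlapped. Without WT replicate 3, Flt1 passed (0.32, edgeR adjusted p = 0.0264), and without T166A replicate 1, Ptprb passed (0.39, edgeR adjusted p = 0.0149).

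Secreted and vessel wall genes all passed, 5 of 5. Vwf (chromosome 6, 125552948 to 125686679), which encodes von Willebrand factor, had 284, 334 and 419 CPM in T166A libraries, against 137, 171 and 260.5 CPM in WT libraries. No T166A library was as low as the highest WT library, which was WT replicate 2, and the log2 fold change was 0.89 (SE 0.15, edgeR adjusted p = 0.00133). Nos3, the endothelial nitric oxide synthase, had 66.8, 86.6 and 108 CPM in T166A libraries, against 37.2, 50.0 and 68.5 CPM in WT libraries (log2 fold change 0.69 with SE 0.16, adjusted p = 0.00887 by edgeR). Mmrn2, an endothelial extracellular matrix protein that binds CLEC14A, had 84.7, 102.5 and 119 CPM in T166A libraries, against 54.2, 66.6 and 79.4 CPM in WT libraries (0.52, edgeR adjusted p = 0.00131). The Mmrn2 groups were separate, and those of Nos3 overlapped only at the edge. Egfl7, a secreted factor of vessel tube formation, had 25.6, 30.6 and 40.4 CPM in T166A libraries, against 18.1, 19.7 and 26.2 CPM in WT libraries (log2 fold change 0.49 with SE 0.12, adjusted p = 0.00702 by edgeR). Plvap, which forms the diaphragms of fenestrae and caveolae, had 221, 253 and 302 CPM in T166A libraries, against 162, 201 and 231 CPM in WT libraries (0.27, edgeR adjusted p = 0.0334). Plvap lost its call in 7 of 12 fits that left out 1 library (without T166A replicate 2, 3 or 5, or WT replicate 1, 3, 4 or 6).

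Among the other surface receptors, Ecscr (chromosome 18, 35713086 to 35722413), an endothelial sialomucin-like protein of cell movement, had 22.5, 27.9 and 31.8 CPM in T166A libraries, against 14.1, 15.9 and 17.1 CPM in WT libraries. Its groups were separate, and the log2 fold change was 0.75 (SE 0.08, edgeR adjusted p = 7.79e-07). Clec14a, a C-type lectin-like receptor, was rare, with 2.62, 2.82 and 4.38 CPM in T166A libraries, against 1.01, 2.13 and 2.32 CPM in WT libraries (0.63, SE 0.20, edgeR adjusted p = 0.0212). Its counts ran from 35 to 148 per library, and its call was lost without T166A replicate 2 and without WT replicate 6. Robo4, a receptor that stabilises vessels, averaged 156 ± 29.6 CPM in T166A and 114 ± 17.3 CPM in WT libraries (SD, n = 6 each; 0.37, SE 0.14, edgeR adjusted p = 0.07). It passed on leaving out T166A replicate 1 or WT replicate 3 and by DESeq2 (adjusted p = 0.0387). The Notch pair did not pass: Notch4, an endothelial Notch receptor, stood at 0.32 on the log2 scale (edgeR adjusted p = 0.111) and Dll4, the ligand of sprouting tip cells, at 0.35 (edgeR adjusted p = 0.274). Notch4 passed without T166A replicate 1 or WT replicate 3 (edgeR adjusted p = 0.0181 and 0.0446), and by DESeq2 (adjusted p = 0.0321), and Dll4 passed without WT replicate 3 (edgeR adjusted p = 0.049).

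Of 4 transcription factors, 2 rose. Erg (chromosome 16, 95359169 to 95586600), an ETS factor that maintains endothelial identity, had 54.8, 73.1 and 88.7 CPM in T166A libraries, against 40.5, 45.5 and 52.6 CPM in WT libraries. The groups were separate, and the log2 fold change was 0.58 (SE 0.12, edgeR adjusted p = 0.00234). Sox18, a SOXF factor of vessel and lymphatic development, had 53.3, 73.0 and 84.9 CPM in T166A libraries, against 41.1, 52.9 and 56.7 CPM in WT libraries (0.38, SE 0.11, edgeR adjusted p = 0.0214). The other SOXF genes, which act with Sox18 in vessel formation, had smaller estimates and did not pass. Sox7 averaged 82.0 ± 15.2 CPM in T166A and 73.6 ± 11.0 CPM in WT libraries (log2 fold change 0.07 with SE 0.13, adjusted p = 0.742 by edgeR). Sox17, which is enriched in arteries, averaged 27.1 ± 6.57 CPM in T166A and 24.4 ± 3.34 CPM in WT libraries (0.06, SE 0.15, edgeR adjusted p = 0.808).

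**Figure D2:**
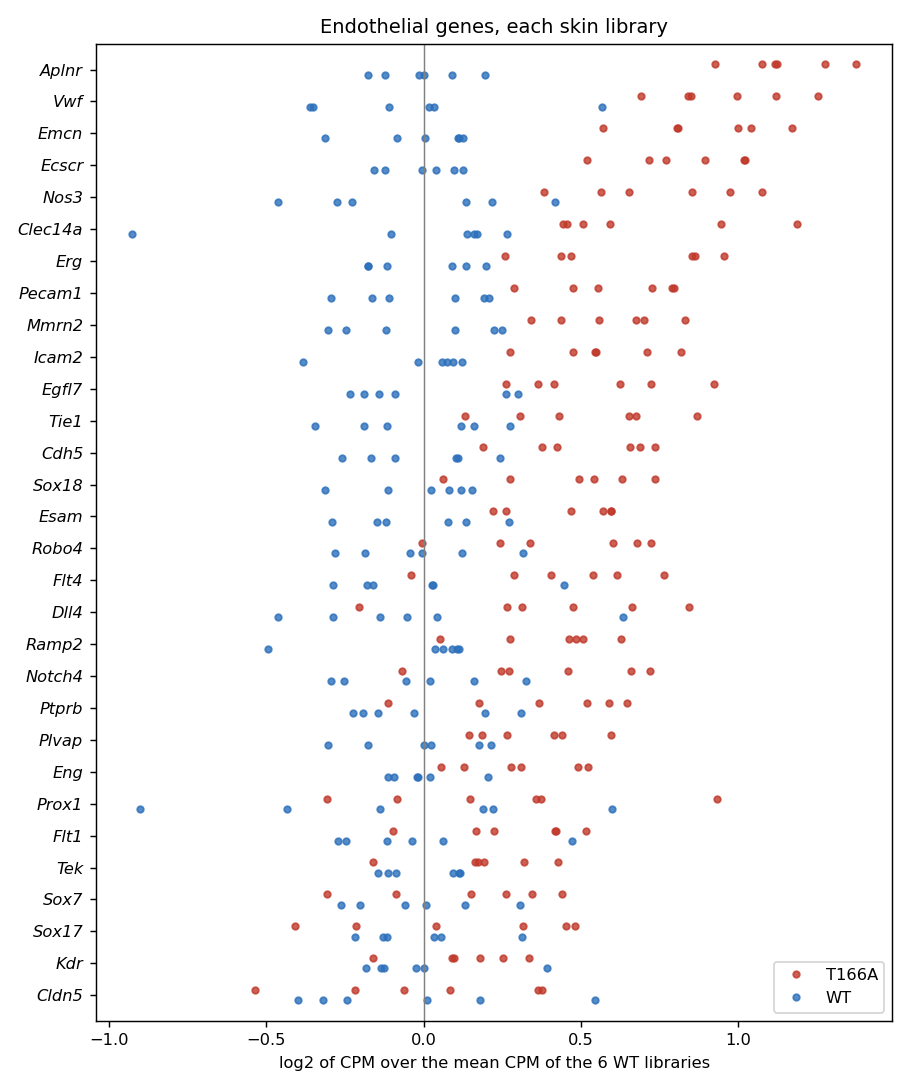
Each skin library's CPM for each gene, as log2 of CPM over the mean CPM of the 6 WT libraries, with T166A in red and WT in blue. For Aplnr, Vwf, Emcn and Ecscr the colours are separate, and for Kdr and Cldn5 they mix.

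The lowest and highest values of the 30 genes often fell in the same libraries. T166A replicate 1 was the lowest T166A library for 29 of 30 genes. WT replicate 3 was the highest WT library for 19 genes, and WT replicate 1 the lowest for 16. By summed CPM of the 30 genes, replicates 1, 4 and 6 were the lowest libraries in both genotypes. Without T166A replicate 1 the number of genes that rose was 22, and without WT replicate 3 it was also 22. It was 14 without T166A replicate 2 or without WT replicate 6, the lowest of the 12 such fits, and 0 of the 30 fell in any of them by edgeR. Of the 18 genes called, 14 were called in all 21 alternative fits, and the exceptions were Tie1, Eng, Plvap and Clec14a.

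To set the genes against one another, each gene was also set against Cdh5 of the same library, a comparison chosen after the values were seen. The test was edgeR's, with each library scaled by its Cdh5 count. On this scale all genes shifted down, with a median log2 fold change of -0.42, and 57.5% of 15472 genes passed, 1.53% higher and 56% lower in T166A. Of the 29 other endothelial genes, 4 were higher than Cdh5 would give, 5 were lower and 20 did not pass. The 5 lower genes, at -0.50 to -0.33, lie around the median of all genes on this scale, while the 4 higher genes belong to the 1.53% that passed upward.

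The 4 genes that rose relative to Cdh5 were Aplnr, Vwf, Emcn and Ecscr. Aplnr had 6.05, 7.11 and 7.32 counts per 100 Cdh5 counts (lowest, median and highest) in T166A libraries, against 3.72, 4.41 and 5.60 in WT libraries (log2 fold change 0.62 with SE 0.14, adjusted p = 0.000134 by edgeR). Vwf had 60.1, 66.8 and 69.4 per 100 Cdh5 counts in T166A libraries, against 40.1, 45.5 and 66.6 in WT libraries (0.45, SE 0.13, edgeR adjusted p = 0.00297). Emcn had 16.7, 18.1 and 19.5 in T166A libraries, against 12.7, 14.0 and 14.9 in WT libraries (0.39, SE 0.13, edgeR adjusted p = 0.00828). Aplnr and Emcn ratios were separate between genotypes, which held in this direction for 0.575% of all genes, and for Vwf 1 WT library reached into the T166A range. Ecscr rose by 0.31 (edgeR adjusted p = 0.0453), but kept its call in 5 of 15 alternatives. It lost the call without T166A replicate 1, 2, 3 or 4, without WT replicate 2, 3, 5 or 6 (0.26 to 0.31 in these fits), and with Pecam1 or Tie1 in place of Cdh5.

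The 5 genes that fell relative to Cdh5 were Cldn5, Sox17, Kdr, Sox7 and Tek. Kdr had 17.0, 19.1 and 19.9 counts per 100 Cdh5 counts in T166A libraries, against 20.4, 24.5 and 26.8 in WT libraries (log2 fold change -0.38 with SE 0.13, adjusted p = 0.00944 by edgeR). Cldn5 had 26.7, 30.6 and 35.6 in T166A libraries, against 31.1, 44.4 and 54.5 in WT libraries (-0.50, SE 0.13, edgeR adjusted p = 0.00127). Tek had 8.09, 9.27 and 9.83 in T166A libraries, against 10.4, 11.4 and 12.8 in WT libraries (-0.33, SE 0.13, edgeR adjusted p = 0.0243). The Kdr and Tek ratios did not overlap between genotypes, and neither did those of Flt1, Eng and Sox7, all lower in T166A, while those of Cldn5 did. A ratio below every WT library was found for 16.4% of all genes, a share near that of these 5 genes among the 29. The Sox17 ratios overlapped, as did those of Ecscr among the higher genes. Sox7 fell by 0.37 (edgeR adjusted p = 0.0104) and Sox17 by 0.40 (edgeR adjusted p = 0.00957). Tek kept its call in 11 of 15 alternatives (lost without T166A replicate 3 or WT replicate 1, and with Tie1 or Esam in place of Cdh5), and the 7 genes other than Tek and Ecscr in all 15. With Pecam1 in place of Cdh5, 3 endothelial genes were higher and 7 lower, where 186 of 15472 genes were higher and 10587 lower. With Tie1, 3 were higher and 4 lower, where 205 of all genes were higher and 7587 lower. With Esam, 5 were higher and 4 lower, where 280 of all genes were higher and 7778 lower.

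**Figure D3:**
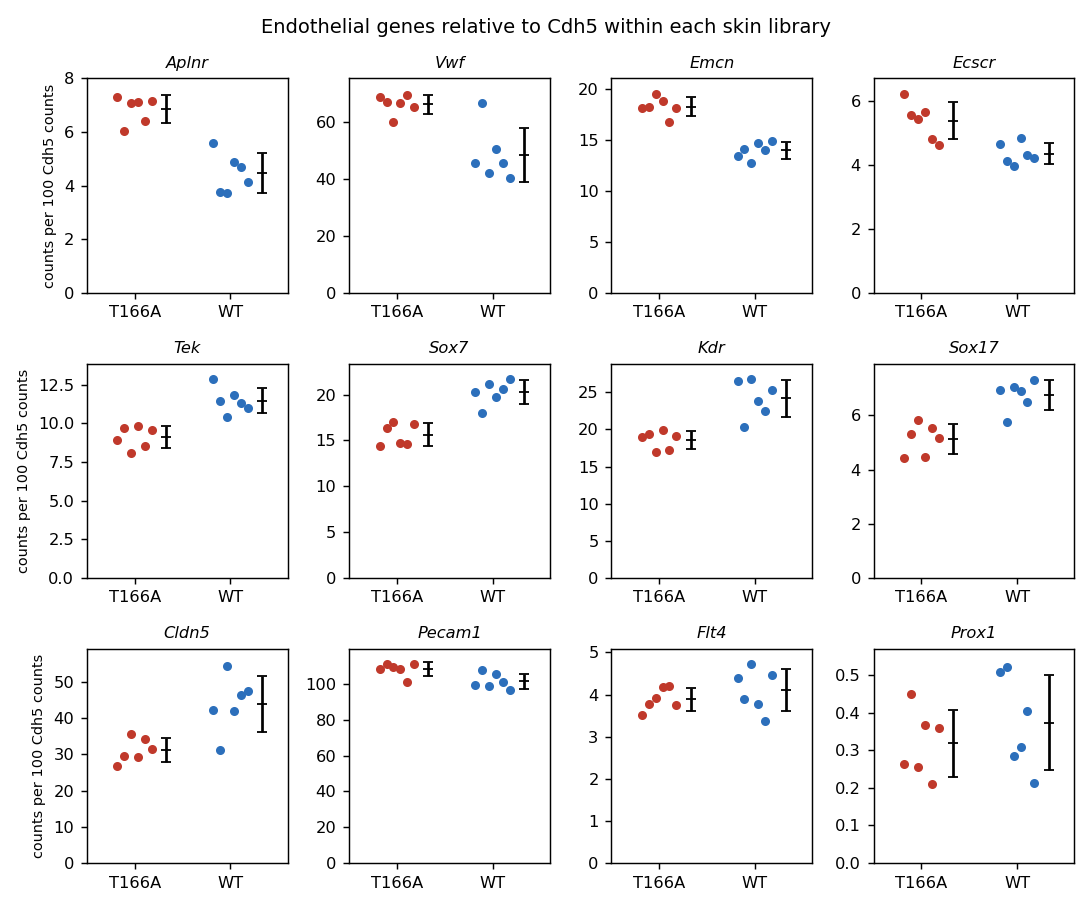
Counts of 12 endothelial genes per 100 Cdh5 counts of the same skin library; points are libraries, and bars beside them are the mean ± SD (n = 6 per genotype). Aplnr and Emcn ratios are higher in all T166A libraries, Kdr, Tek and Sox7 ratios are lower in all of them, and Pecam1 stays near 108 in T166A and 102 in WT.

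Promoters were read for the genes that changed relative to Cdh5. RefSeq sequences (GRCm38.p6) of the 250 bases before a listed start were matched for 15 of the 30 genes, and for 4 of the 9 that changed relative to Cdh5. They are printed 5′ to 3′ on the gene's strand, with capitals for a match on either strand to CAGGAAG, the motif searched for the ETS family of ERG, to AACAAT, for the SOX family, or to AGATAA, for the family of GATA factors. They are Emcn (chr3:137340828-137341077, plus strand), which rose relative to Cdh5, and Tek (chr4:94739039-94739288, plus strand), Kdr (chr5:75978456-75978705, minus strand) and Cldn5 (chr16:18776597-18776846, plus strand), which fell.
Emcn: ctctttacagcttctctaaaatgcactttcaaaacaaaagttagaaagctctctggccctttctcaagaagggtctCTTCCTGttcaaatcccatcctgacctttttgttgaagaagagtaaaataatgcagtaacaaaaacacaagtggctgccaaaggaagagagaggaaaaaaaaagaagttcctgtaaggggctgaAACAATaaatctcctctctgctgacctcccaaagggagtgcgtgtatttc
Tek: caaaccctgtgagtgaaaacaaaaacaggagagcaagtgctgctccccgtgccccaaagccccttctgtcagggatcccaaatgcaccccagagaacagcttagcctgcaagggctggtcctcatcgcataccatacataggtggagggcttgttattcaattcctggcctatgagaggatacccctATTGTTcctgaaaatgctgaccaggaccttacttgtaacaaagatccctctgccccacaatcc
Kdr: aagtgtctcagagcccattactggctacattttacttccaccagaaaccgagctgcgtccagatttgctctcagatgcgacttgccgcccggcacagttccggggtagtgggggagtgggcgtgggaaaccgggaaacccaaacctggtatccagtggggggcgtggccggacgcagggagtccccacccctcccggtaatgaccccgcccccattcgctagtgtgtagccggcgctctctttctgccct
Cldn5: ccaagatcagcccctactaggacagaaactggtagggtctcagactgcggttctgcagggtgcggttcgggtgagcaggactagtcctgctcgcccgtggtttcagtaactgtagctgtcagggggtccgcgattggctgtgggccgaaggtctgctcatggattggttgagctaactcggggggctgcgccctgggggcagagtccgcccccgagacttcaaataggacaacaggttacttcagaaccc
The Emcn window holds CTTCCTG, which reads CAGGAAG on the opposite strand, and also AACAAT. The Tek window holds ATTGTT, which reads AACAAT on the opposite strand. The starts are those listed with the sequences, and those of Emcn, Tek and Kdr lie inside the RefSeq gene intervals of the same build, which begin farther upstream. The last bases of the Emcn window, most of the Tek window and all of the Kdr window therefore lie within the gene interval, and the Cldn5 window ends just before its gene. No match lies in the Kdr and Cldn5 windows. The 3 motifs do not overlap in these windows. Counting a gene where any of its windows matched, CAGGAAG lies in 5 of 15 genes read (Egfl7, Emcn, Erg, Notch4 and Robo4), beside 12.1% of 27025 genes. AACAAT lies in 3 of 15 (Emcn, Erg and Tek), beside 10.9%, and AGATAA in 1 of 15 (Erg), beside 11.4%. A match is a description of letters in a short window, not a binding site.

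Blood and lymphatic genes were compared through Prox1 and Flt4. Prox1 (chromosome 1, 190118035 to 190170827), the lymphatic identity factor, was rare, with 1.09, 1.61 and 2.58 CPM in T166A libraries, against 0.724, 1.38 and 2.04 CPM in WT libraries. The groups overlapped, at 25 to 87 counts per library (log2 fold change 0.20, SE 0.26, edgeR adjusted p = 0.604). Flt4 (chromosome 11, 49609679 to 49652739), the receptor for VEGF-C, which blood vessels that sprout also express, had 14.5, 20.7 and 25.3 CPM in T166A libraries, against 12.2, 14.3 and 20.3 CPM in WT libraries. It missed the threshold narrowly (0.37, SE 0.13, edgeR adjusted p = 0.0544), and passed without T166A replicate 1 or WT replicate 3 (edgeR adjusted p = 0.00584 and 0.00482). It also passed by DESeq2 (adjusted p = 0.0225) and limma-voom (0.046). Both genes together made up 0.495 to 0.600% of the counts of the 30 genes in T166A libraries (mean 0.55%), against 0.483 to 0.632% in WT libraries (mean 0.568%). The shares overlapped. Relative to Cdh5, neither passed (Prox1 -0.23, edgeR adjusted p = 0.456, and Flt4 -0.08, edgeR adjusted p = 0.631).

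A further list of 13 genes known from lymphatic endothelium had 12 tested, of which 5 rose, 1 fell and 6 did not pass, with a median of 0.39. The shares over all genes tested were 12.7% higher and 13.2% lower. Reln, which encodes the secreted protein reelin made by lymphatic endothelium, had 8.46, 9.99 and 12.2 CPM in T166A libraries, against 2.91, 4.04 and 7.01 CPM in WT libraries (log2 fold change 1.15 with SE 0.15, adjusted p = 1.01e-05 by edgeR). Its groups were separate. Relative to Cdh5, Reln was also higher (0.71, edgeR adjusted p = 0.00032), and so was Gja4 (0.43, edgeR adjusted p = 0.00477), where 1.53% of all genes passed upward. Reln had 1.84 to 2.04 counts per 100 Cdh5 counts in T166A libraries, against 0.896 to 1.79 in WT libraries. Nr2f2, Nts and Foxc2 did not pass on that scale. Pdpn was lower there (-0.59, edgeR adjusted p = 0.000271), as were 56% of all genes. Nts, neurotensin, rose by 0.80 (edgeR adjusted p = 0.00376). Of the others that rose, Gja4 (0.86) is a gap junction gene of arteries too, Nr2f2 (0.69) also sets venous identity, and Foxc2 (0.50) acts in lymphatic valves and other tissues. Pdpn, podoplanin, which fibroblasts and macrophages express as well, fell by 0.15 (edgeR adjusted p = 0.0305). Mmrn1, a further lymphatic gene, averaged 2.79 CPM in T166A and 1.88 CPM in WT libraries and did not pass (0.47, edgeR adjusted p = 0.209). Ccl21a, the lymphatic chemokine, was too rare to test, at a mean of 0.232 CPM in T166A and 0.0191 CPM in WT libraries.

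Among 20 further genes of arterial, capillary, venous and activated blood endothelium, 13 rose, 0 fell and 7 did not pass, with a median of 0.48. Of all genes tested, 12.7% rose and 13.2% fell. At an unadjusted p under 0.05, 15 were higher and 0 lower, and DESeq2 and limma-voom called 13 and 12 higher and 0 lower. Ackr1, the chemokine-binding receptor of venules, had 148, 192.5 and 209.8 CPM in T166A libraries, against 54.0, 74.3 and 90.6 CPM in WT libraries (log2 fold change 1.26 with SE 0.12, adjusted p = 6.57e-06 by edgeR). Per 100 Cdh5 counts, Ackr1 had 33.63 to 37.75 in T166A libraries, against 17.47 to 23.15 in WT libraries. These ratios were separate, which held in this direction for 0.575% of all genes, while those of Gja5 of the same list overlapped. A rise beyond Cdh5 is therefore not particular to the further lymphatic genes. Angpt2, a ligand of TIE2 that activated endothelium releases, had 92.3, 99.7 and 113 CPM in T166A libraries, against 50.7, 54.8 and 58.8 CPM in WT libraries (0.78, SE 0.06, edgeR adjusted p = 1.7e-09). Vcam1, an adhesion molecule of inflamed vessels, rose by 0.50 (edgeR adjusted p = 6.3e-06), and Pgf, placental growth factor, by 0.52 (edgeR adjusted p = 6.34e-05). In all 4 genes every T166A library exceeded every WT library, which held for 8.83% of all genes tested. These 4 were named for their small adjusted p, so their separation is no further evidence. Of the 20 genes, 11 passed the filter on low counts in BMDM, as did 12 of the 30 endothelial genes. Cd36 had 442 to 989 CPM and Vcam1 34.2 to 48.9 CPM in BMDM libraries, so the list does not mark endothelium alone. Others that passed were low there: Selp averaged 1.131 CPM in T166A and 1.255 CPM in WT BMDM, against 914 to 2253 CPM in skin libraries.

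The ligands of these receptors did not move as one. Of 15 tested, 3 rose, 4 fell and 8 did not pass, with a median of -0.13. Over all genes tested, 12.7% rose and 13.2% fell. The 4 smallest adjusted p-values of the list were those of Angpt2, Slit2, Tgfb1 and Pgf. Slit2, a guidance ligand of the Robo family, had 2.90, 3.59 and 4.20 CPM in T166A libraries, against 5.26, 6.34 and 7.63 CPM in WT libraries (log2 fold change -0.92, edgeR adjusted p = 1.22e-05), with separate groups. Tgfb1, which signals through receptors that Eng assists, fell by 0.39 (edgeR adjusted p = 3.5e-05). Vegfa, the ligand of Kdr and Flt1, averaged 588 CPM in T166A and 666 CPM in WT libraries (-0.27, edgeR adjusted p = 0.000701). Of 23 signalling partners and regulators, 6 rose, 4 fell and 13 did not pass, with a median of 0.04, beside the same shares of all genes. Calcrl, the receptor that pairs with Ramp2, rose by 0.52 (edgeR adjusted p = 6.94e-05), and S1pr1, a sphingosine-1-phosphate receptor of the vessel barrier, by 0.47 (edgeR adjusted p = 0.000159). Klf4, a zinc finger factor of endothelium and macrophages, fell by 0.66 (edgeR adjusted p = 4e-08), and Notch1, a Notch receptor of many cells, fell by 0.52 (edgeR adjusted p = 1.8e-06). In BMDM, S1pr1 averaged 85.4 CPM in T166A and 73.6 CPM in WT libraries, and Calcrl 38.0 and 34.9 CPM. Notch1 averaged 83.65 and 63.2 CPM there, and Klf4 9.17 and 11.3 CPM, so none of these genes marks endothelium alone.

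Other cell types were read through marker lists in the same libraries. The counts by edgeR that follow stand beside 12.7% of all genes tested that rose and 13.2% that fell. Macrophage markers were lower, with 7 of 10 lower, 0 higher and 3 not passing, and Lyz2, a macrophage lysozyme, fell by 0.34 (edgeR adjusted p = 0.000175), while Cd14, the co-receptor for bacterial lipopolysaccharide, did not pass (-0.13, edgeR adjusted p = 0.125). Endothelial counts per 100 macrophage marker counts were 22.0 to 34.7 in T166A libraries (mean 29.4), against 14.9 to 22.5 in WT libraries (mean 18.6), and overlapped in 1 T166A library. Markers of pericytes and smooth muscle, the mural cells around vessels, rose in 8 of 12 and fell in 0, and their sums were separate, at 892 to 1213 CPM in T166A and 507 to 769 CPM in WT libraries. Rgs5, a pericyte regulator of G protein signalling, rose by 0.66 (edgeR adjusted p = 0.000706), and Acta2, smooth muscle actin, by 0.86 (edgeR adjusted p = 0.000797). Adipocyte markers rose in 8 of 9 tested, with a median log2 fold change of 1.65. Adipoq, which encodes adiponectin, had 6.87 to 13.9 CPM in T166A libraries, against 0.377 to 1.424 CPM in WT libraries (10.8-fold, edgeR adjusted p = 9.45e-09), and Pck1, a gene of glyceride synthesis in fat, 9.87 to 28.8 CPM in T166A libraries, against 1.496 to 2.38 CPM in WT libraries (9.98-fold, edgeR adjusted p = 4.08e-06). The lipase gene Lipe rose by 0.45 (edgeR adjusted p = 0.00653), whereas Fabp4, which endothelium also expresses, did not pass (0.01, edgeR adjusted p = 0.972). Both were also counted in BMDM, at 28.3 to 47.8 CPM for Lipe and 29.1 to 46.5 CPM for Fabp4. The adipocyte sums in skin were 519 to 785 CPM in T166A and 465 to 660.3 CPM in WT libraries, of which Fabp4 alone made up 457 to 668 CPM in T166A and 435 to 621 CPM in WT libraries. Schwann cell markers rose in 7 of 10 and fell in 1, with a median log2 fold change of 0.85. Cdh19, a cadherin of Schwann cell precursors, had 1.66 to 3.79 CPM in T166A libraries, against 0.545 to 1.38 CPM in WT libraries (log2 fold change 1.70, edgeR adjusted p = 1.69e-05). The Schwann cell sums were 376 to 484 CPM in T166A and 407 to 505 CPM in WT libraries, of which Pmp22 alone made up 295 to 399 CPM in T166A and 349 to 468 CPM in WT libraries. Mbp, a myelin gene, rose by 0.44 (edgeR adjusted p = 0.00163), and Pmp22, which other cells express too, fell by 0.42 (edgeR adjusted p = 0.00107). Mbp is shared as well, since the BMDM libraries held it at 69.5 to 115.5 CPM.

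Skeletal muscle markers fell in 9 of 10, where 13.2% of all genes tested fell. Their sums were 30.2 to 41.2 CPM in T166A and 65.1 to 95.8 CPM in WT libraries. Among those that fell were the actin gene Acta1 (-1.33, edgeR adjusted p = 7.37e-08) and the calcium pump gene Atp2a1 (-1.27, edgeR adjusted p = 1.57e-07). Neutrophil markers fell in 4 of 7 tested, among them Csf3r (-0.35, edgeR adjusted p = 0.0191) and S100a9 (-1.08, edgeR adjusted p = 0.0324), while limma-voom called 1 of them, Csf3r. Csf3r does not mark neutrophils alone, since the BMDM libraries held it at 96.1 to 221 CPM. Neutrophil sums in skin overlapped, at 165 to 265 CPM in T166A and 245 to 301 CPM in WT libraries. Of 10 fibroblast markers 0 passed by edgeR, with Fbln1 lower at an unadjusted p under 0.05 and by both DESeq2 and limma-voom. Their sums were 6337 to 11750 CPM in T166A and 7238 to 10720 CPM in WT libraries, and Col3a1 and Col1a1, the most abundant, stood at log2 fold changes of -0.09 and -0.10. Of 10 keratinocyte markers and 7 tested platelet markers, 0 passed by edgeR, at an unadjusted p under 0.05, by DESeq2 or by limma-voom. Krt14 and Sfn, the most abundant keratinocyte markers, had log2 fold changes of 0.24 and -0.24, and the keratinocyte sums were 181 to 342 CPM in T166A and 178 to 404 CPM in WT libraries. The platelet list was read because platelets share Vwf and Pecam1 with endothelium. Its most abundant genes in skin, Pf4 and Ppbp, also averaged 179 and 23.3 CPM in T166A BMDM, against 221 and 28.8 CPM in WT BMDM. The list therefore does not mark platelets alone. In skin the platelet sums were 321 to 468 CPM in T166A and 342 to 435 CPM in WT libraries, with Pf4 at -0.01 (edgeR adjusted p = 0.956), Ppbp at -0.40 (edgeR adjusted p = 0.356) and Gp6 at 0 in every library. No other marker of these lists was at 0 in every skin library. What these other cells contribute to the endothelial result was not tested.

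**Figure D4:**
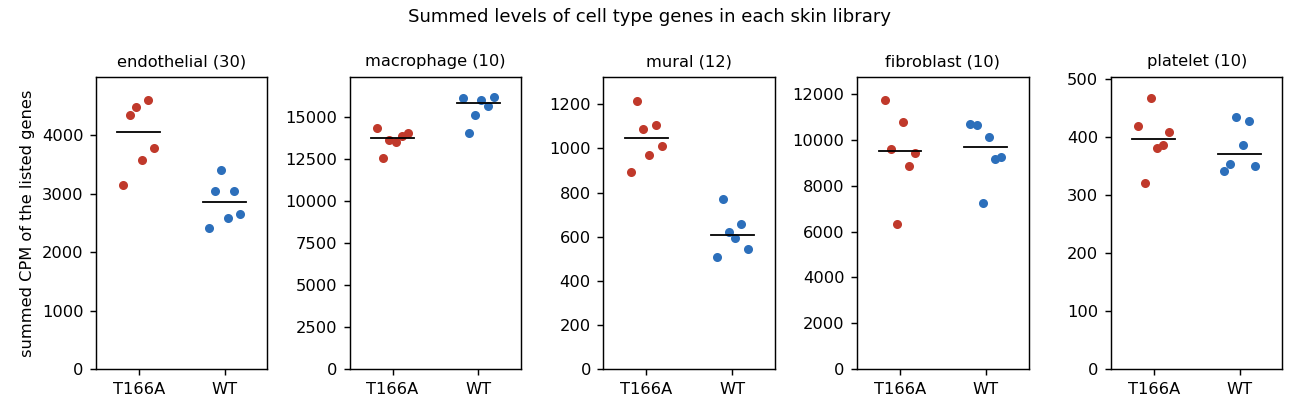
Summed CPM of the genes of 5 cell type lists in each skin library, with the number of genes listed in brackets and a line at the median. Mural sums are higher in every T166A library (892 to 1213 CPM, against 507 to 769 CPM in WT), endothelial sums overlap at their edge, and fibroblast and platelet sums overlap widely.

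The level of the 30 genes showed how far the wound fraction differs from cultured macrophages. In skin, Pecam1 was gene 345 and Cdh5 gene 370 of 15473 by mean CPM. Per kb of transcript, Pecam1 stood highest in T166A libraries (164 CPM per kb) and Cldn5 in WT libraries (113 CPM per kb, against 107 CPM per kb for Pecam1 there), and Prox1 lowest in both (0.209 CPM per kb in T166A and 0.171 in WT). In both genotypes Pecam1, Eng, Cdh5, Plvap and Cldn5 were the 5 highest per kb. The 30 genes summed to 67.2 to 159 CPM in the 6 BMDM libraries. For 26 genes a ratio of mean levels, skin over BMDM, could be given. It ran from 1.95 for Icam2 to 7140 for Ptprb, with a median of 230.0, over 10 in 24 genes and over 100 in 18. The Ptprb ratio rests on 4 counts in BMDM, all in 1 library, with 5 libraries at 0, so its size is loosely set. The ratio rests on separate tables, and 8 of the 30 genes (Pecam1, Egfl7, Esam, Erg, Sox17, Eng, Ecscr and Prox1) were represented by another transcript in BMDM, so it is a description. Eng, which macrophages also express, reached 67.3 CPM in BMDM, Vwf 18.6 CPM, Icam2 7.17 CPM and Kdr 5.67 CPM. Sox17 and Clec14a had 0 counts in all 6 BMDM libraries, and Cldn5 had 3 counts over all 6.

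**Figure D5:**
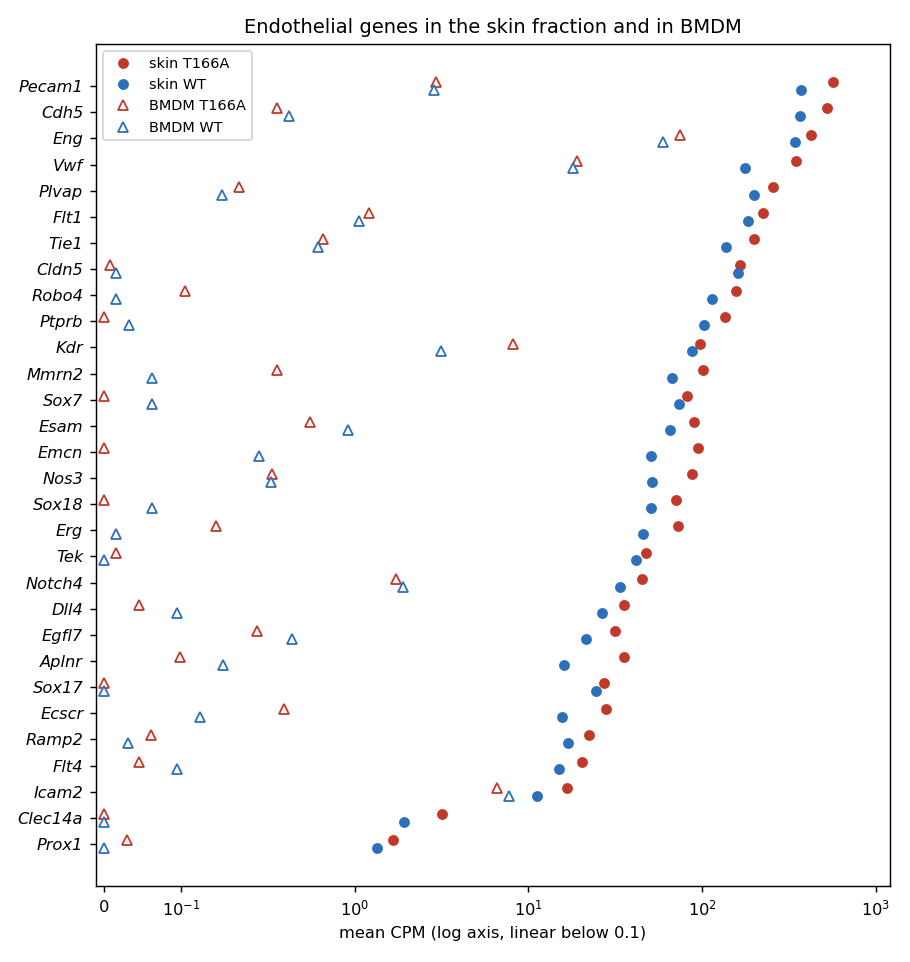
Mean CPM of the 30 genes in skin (circles, n = 6 per genotype) and BMDM (triangles, n = 3 per genotype), with T166A in red and WT in blue, on an axis that is logarithmic above 0.1 CPM. All 30 lie further right in skin, and Eng, Vwf, Icam2 and Kdr lie furthest right in BMDM.

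In BMDM, 12 of the 30 genes passed the filter, and 0 of them passed the test by edgeR, where 9 of 13139 genes (0.0685%) did, 0.0609% higher and 0.00761% lower in T166A. At an unadjusted p under 0.05 it was 1 gene, Kdr, which DESeq2 called (adjusted p = 0.028) and limma-voom did not. Kdr had 10.9, 7.86 and 5.75 CPM in T166A replicates 1, 2 and 3, against 4.73, 1.92 and 2.82 CPM in WT replicates 1, 2 and 3. The groups did not overlap, which held for 7.99% of all genes tested there (log2 fold change 1.32, SE 0.35, adjusted p = 0.221 by edgeR, and 0.028 to 0.735 across the other settings tried). Within batch B1 it was 1.51 (edgeR adjusted p = 0.155), and batch B2 held 1 library of each genotype, replicate 3. For Pecam1 the log2 fold change in BMDM was -0.14 (SE 0.35, adjusted p = 0.892 by edgeR), Eng had one of 0.22 (SE 0.22, edgeR adjusted p = 0.716), Vwf one of -0.25 (SE 0.34, edgeR adjusted p = 0.784) and Icam2 one of -0.28 (SE 0.21, edgeR adjusted p = 0.602). The difference between the effects in skin and in BMDM was not tested, and most of these genes were too rare in BMDM for a comparison.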

How the data were processed

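Raw counts per RefSeq transcript were deposited in a table for skin and one for BMDM. Per the submitters' processing notes, the tools were HISAT2 2.2.1, featureCounts (no version named), cutadapt 4.4 and FastQC 0.12.1, with mm10. How strand and multimapping reads were treated is not given in the sources used. Of 45843 transcripts in skin and 45895 in BMDM, 117 in each (0.187% and 0.514% of counts) matched no gene and were left out. The most abundant transcript stood for each gene, which left 26149 and 26165 genes.

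The sources were fitted separately in R 4.3.3 with edgeR 4.0.16 (TMM, filterByExpr with a minimum count of 10 and minimum total of 15, robust quasi-likelihood F test, threshold 0.05), skin with genotype and BMDM with batch (B1, B2) and genotype. The SE is the absolute log2 fold change over the root of F. The biological coefficient of variation was 0.133 in skin and 0.279 in BMDM. The script was tested on simulated data. The members, lists and tests were chosen with earlier results of these data known. All 30 members are accounted for, and from further lists the called genes with the 4 smallest adjusted p were named, and from marker lists the 2 most abundant genes. Further genes (among them Nts, Pdpn, Mmrn1, Ccl21a, Vegfa, Fbln1, Adipoq, Pck1 and Cdh19) were named after their values were seen.

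Alternatives were RLE factors, no filter, a minimum count of 30, DESeq2 1.42.0, limma-voom (limma 3.58.1) with quality weights, a replicate block, the sum over transcripts, a correction for transcript length in each library (alone and with the block), leaving out each library and, in BMDM, no batch term and batch B1 alone. The scaling by Cdh5 was added after seeing the data. Same-numbered BMDM libraries deviated together (correlations 0.115 to 0.2 over 3 pairs, all over 0.1). The numbers follow the batch labels, and replicate 3 is the only B2 library of each genotype. A batch shift therefore also enters these correlations, and they do not settle whether the libraries are pairs. In skin, same-numbered libraries did not deviate together over all genes tested. The sums of the 30 endothelial genes did follow a similar order by number in both genotypes.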

Additional observations from a re-analysis of the deposited data

Results flagged for a closer look

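In 6 of 60 groups of 6 skin libraries (30 endothelial genes in each genotype), 1 library lay apart from the other 5 by Dixon's test, which flags about 1 group in 20 by chance. All 6 were WT libraries. WT replicate 3 was high for Kdr, at 115 CPM with the others at 77.1 to 87.6 CPM, for Dll4, at 41.1 CPM with the others at 19.2 to 27.3 CPM, and for Flt4, at 20.3 CPM with the others at 12.2 to 15.2 CPM. WT replicate 2 was high for Vwf, at 260.5 CPM with the others at 137 to 180 CPM. WT replicate 1 was low for Ramp2, at 11.9 CPM with the others at 17.3 to 18.2 CPM, and for Icam2, at 8.605 CPM with the others at 11.1 to 12.2 CPM. Of these genes, Dll4 and Flt4 passed by edgeR without WT replicate 3, and Vwf, Ramp2 and Icam2 passed with and without the library named.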

How the results depend on the processing

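In skin the number of endothelial genes that rose was 14 to 22 over the 12 fits that left out 1 library, 21 by DESeq2 and 18 under the other alternatives without a block, with 0 lower in each. With the replicate number as a block it was 23, and 23 with the transcript length trend removed as well, and the block raised the count over all genes to 2248 higher and 2301 lower. Flt1, Robo4, Ptprb, Notch4 and Flt4 passed by edgeR with the block but not without it. Skin replicate numbers are not used as pairs: over all genes tested, same-numbered libraries correlated at -0.045 to 0.09, and 0 of 6 matched best with its own number. The 30 genes did share an order. Their sums were lowest in replicates 1, 4 and 6, at 3152, 3582 and 3776 CPM in T166A and 2408, 2593 and 2662 CPM in WT. Whether same-numbered skin libraries are pairs is therefore not settled. Estimates near 0 changed sign: Cldn5 ran from -0.134 to 0.085 and Sox17 from -0.018 to 0.153 when 1 library was left out (Sox17 -0.007 without T166A replicate 5), and Sox17 was -0.034 by limma-voom. In BMDM the number of genes called was 105 with no filter, 391 by DESeq2, 177 by limma-voom, 18 with the length trend removed, 23 with the length trend removed and the replicate block, 21 in batch B1 alone, and 0 with the sum over transcripts (1557 at an unadjusted p under 0.05) or with no batch term (929). It was 0 to 18 when 1 library was left out, with 0 without T166A replicate 1 or 2 or WT replicate 1 or 3 (1072, 859, 1280 and 2303 genes at an unadjusted p under 0.05). The replicate block alone gave 8 higher and 2 lower genes in BMDM and 0 of the endothelial genes, and DESeq2 called 1 of them, Kdr. In BMDM, Pecam1 turned to 0.114 by limma-voom, 0.012 with no batch term and 0.148 in B1 alone (-0.32 to 0.149 without 1 library), Vwf to 0.072, 0.066 and 0.312 (-0.515 to 0.313), and Eng ran from -0.03 to 0.514. The cause of these changes was not tested. The lowest counts in skin were those of Prox1 (25 to 87 per library) and Clec14a (35 to 148), and 18 of the 30 genes were too rare to test in BMDM.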
